A study of Mus musculus with 3 samples.

Results

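Proline tRNA fragments were described in small RNA of mouse epididymis, the duct in which sperm mature. The members are the tRNA genes whose names carry proline and the anticodon AGG, CGG or TGG, which gave 19 of the 446 tRNA genes listed. Of these, 8 have the anticodon AGG, 3 have CGG and 8 have TGG. The samples are 1 library labelled wild type and 2 libraries labelled Alkbh3-/-, called knockout 1 and knockout 2 here. No treatment, age or strain is set out for these groups, beyond a sample name for the wild type that begins with B6. RNA between 15 and 50 nt was cut from a gel before the libraries were made. The labels do not say whether the knockout libraries came from separate animals, so p-values measure only the spread between these libraries, which may be technical. The wild type has no replicate. Single mRNAs were not analysed here, so neither the loss of Alkbh3 nor the tissue was checked against marker genes.

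Proline tRNAs read the codons that begin with CC, and each anticodon names a set of tRNAs that pair with part of them. In mature tRNA-Pro the A of the AGG anticodon is edited to inosine, and the G that follows the anticodon is methylated on N1. Ribonucleases such as angiogenin cut tRNAs in the anticodon loop, which splits the molecule near its middle, and shorter fragments arise from cuts in other loops. ALKBH3 is a demethylase that acts on 1-methyladenosine and 3-methylcytidine in RNA, and the series compares small RNA with and without it.

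In the sequences used here, the anticodon lies close to the middle of the gene. They are shown because the read lengths described further on can be set against the number of bases before the anticodon. Both are in build mm10 (GRCm38), are read 5′ to 3′ along the tRNA, and carry the anticodon in capitals at bases 33 to 35, after 32 other bases. The gene tRNA-Pro-TGG-3-1 lies at chr11:67291139-67291210 on the plus strand, and its sequence comes from a GENCODE transcript. The gene tRNA-Pro-TGG-5-1 lies at chr17:23538766-23538837 on the minus strand, and its sequence comes from a RefSeq promoter window.
tRNA-Pro-TGG-3-1: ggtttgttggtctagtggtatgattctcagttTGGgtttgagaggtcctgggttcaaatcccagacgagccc
tRNA-Pro-TGG-5-1: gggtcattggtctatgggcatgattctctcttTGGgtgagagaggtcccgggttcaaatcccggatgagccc
The pair is the same at 59 of 72 bases, with 8 differences before the anticodon and 5 after it. These 2 genes had few reads, and the sequences of the copies with most reads were not used here.

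Of the 19 genes, 18 are 72 bases long and 1, tRNA-Pro-AGG-3-1, is 71 bases long. The start and end of 16 of them are those of a RefSeq tRNA gene. Only tRNA-Pro-TGG-3-1 lies in another annotated gene, in exon 12 of a retained-intron transcript of Myh8, a myosin heavy chain gene. For 8 of the 19, the nearest other tRNA gene is also a proline gene. Among them, the gap is 189 bases between tRNA-Pro-AGG-1-4 and tRNA-Pro-TGG-1-1 on chromosome 7, 565 bases between tRNA-Pro-AGG-1-1 and tRNA-Pro-CGG-1-1 on chromosome 1, and 981 bases between tRNA-Pro-AGG-1-2 and tRNA-Pro-TGG-2-1 on chromosome 3. On chromosome 17, tRNA-Pro-TGG-5-1 lies 1018 bases from tRNA-Pro-GGG-1-1 and 2077 bases from tRNA-Pro-CGG-1-3.

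Proline genes were a small share of the tRNA reads. The gene table, which gives a count per tRNA gene, held 6254 proline reads in the wild-type library, 8697 in knockout 1 and 8469 in knockout 2. Scaled to the total over 5 RNA classes (mRNA, miRNA, rRNA, snoRNA and tRNA), of 15107055, 15411457 and 21169908 reads, this is 414 reads per 1000000 (RPM; Wilson 95% interval 404 to 424, for counting error only), 564 RPM (553 to 576) and 400.0 RPM (392 to 409). As a share of the gene table the same reads were 0.156%, 0.2604% and 0.178%. Knockout 1 thus stood above both other libraries on either scale. Knockout 2 lay at the wild-type level in RPM and above it as a share of the tRNA gene table. The libraries also differed in the share of reads that were miRNA, at 15.1%, 24.8% and 30.7%, and in the share that were tRNA, at 44.7%, 36.5% and 38.1%. The part of these shares in the proline values was not tested.

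The question of the series was whether loss of Alkbh3 goes with a difference in small RNA, and for the proline sum no difference passed the test. The sum over all proline genes had a mean of 482 ± 116 RPM in the knockouts (SD, n = 2) and 414 RPM in the wild type. This sum includes the gene tRNA-Pro-GGG-1-1, which had 2, 1 and 5 reads. The fitted log2 fold change was 0.22 (SE 0.35), a fold of 1.16 with a 95% interval from 0.702 to 1.93 (edgeR's quasi-likelihood test, adjusted p = 0.643). Of 22 amino acid sums tested, 3 (13.6%) passed at an adjusted p of 0.05. In a bulk sample, fewer cells that make a fragment and less of it per cell cannot be told apart.

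The 3 anticodons had the same order of libraries. tRNA-Pro-AGG, named Pro-AGG below, had 2537 reads (168 RPM) in the wild-type library, 3436 (223 RPM) in knockout 1 and 3389 (160.1 RPM) in knockout 2. tRNA-Pro-TGG (Pro-TGG) had 2351 reads (156 RPM), 3273 (212 RPM) and 3169 (150 RPM) in the same order. tRNA-Pro-CGG (Pro-CGG) had 1366 reads (90.4 RPM), 1988 (129 RPM) and 1911 (90.3 RPM). In each anticodon knockout 1 was the highest library and knockout 2 lay at or a little under the wild type, so the groups overlap. Reads shared by proline anticodons cannot be assigned to 1 of them, so the 3 sums are not independent.

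None of the 3 anticodons passed the test, against 5 of 45 anticodons (11.1%) over the whole table. The log2 fold change of knockout over wild type was 0.19 (SE 0.50, edgeR adjusted p = 0.739) for Pro-AGG, with a 95% interval of the fold from 0.571 to 2.28. It was 0.28 (SE 0.44, edgeR adjusted p = 0.677) for Pro-CGG, with an interval from 0.659 to 2.23. It was 0.22 (SE 0.49, edgeR adjusted p = 0.739) for Pro-TGG, with an interval from 0.587 to 2.31. The intervals hold a doubling as well as no change. The median over all 45 anticodons was -0.29 on this scale. Scalings that bring this median near 0 raised the proline values with it: under TMM factors (trimmed mean of M values) the median was -0.04 and the proline values were 0.46, 0.55 and 0.49, with no call.

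**Figure D1:**
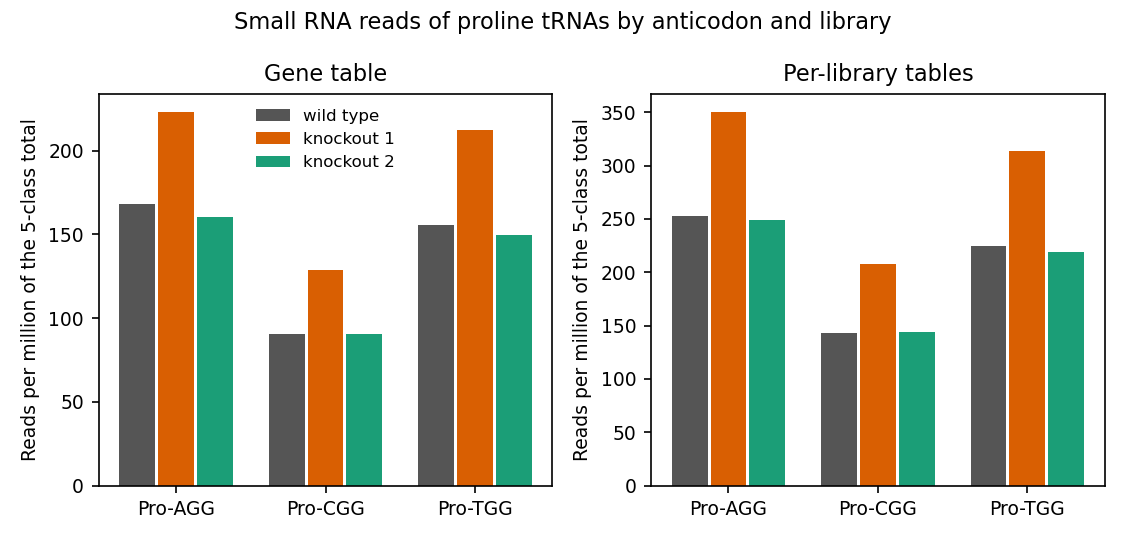
RPM of the 5-class total (y axis) for the 3 proline anticodons in the wild-type library and both knockout libraries, from the gene table (left) and from the per-library tables (right). Each bar is 1 library, with no replicate of the wild type. In both tables knockout 1 is the highest bar of each anticodon and knockout 2 is close to the wild type.

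The makeup of the proline reads was nearly the same in the 3 libraries. Pro-AGG gave 40.6%, 39.5% and 40.02% of them in the wild-type library, knockout 1 and knockout 2. Pro-TGG gave 37.6%, 37.6% and 37.4%, and Pro-CGG 21.8%, 22.9% and 22.6%. No source used here says how reads shared by anticodons were divided, and the part of that division in these shares was not tested. Per gene, Pro-CGG had the most reads, with 455, 663 and 637 reads per gene. The genes with few reads named below all belong to Pro-AGG and Pro-TGG, which lowers the reads per gene of these anticodons.

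Each gene copy is listed, although copies that share the first number in their name, such as tRNA-Pro-AGG-1-1 to tRNA-Pro-AGG-1-6, are named as the same tRNA sequence. Copies with the same sequence cannot be told apart by reads within it. No source used here says how the authors divided shared reads among them. Counts of single copies, and their order, are therefore uncertain. Of the 19 genes, 15 had at least 100 reads over the 3 libraries and held 99.6%, 99.6% and 99.7% of the proline reads. The other 4, tRNA-Pro-AGG-2-1, tRNA-Pro-AGG-3-1, tRNA-Pro-TGG-3-1 and tRNA-Pro-TGG-5-1, had 0 to 25 reads per library. tRNA-Pro-TGG-5-1 was at 0 in the gene table in every library and had 1 read, in the wild-type library, in the per-library tables.

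The copy with the most reads in every library was tRNA-Pro-TGG-2-4 on chromosome 17, with 619 reads (40.97 RPM) in the wild-type library, 868 (56.3 RPM) in knockout 1 and 833 (39.3 RPM) in knockout 2. The other Pro-TGG-2 copies, on chromosomes 3, 11 and 14, had 424 to 461 reads in the wild type. Of the Pro-CGG-1 copies, tRNA-Pro-CGG-1-1 was the highest with 542, 730 and 727 reads, while tRNA-Pro-CGG-1-2 had 404, 616 and 613 and tRNA-Pro-CGG-1-3 had 420, 642 and 571.

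Among the 6 Pro-AGG-1 copies the highest in each library was tRNA-Pro-AGG-1-6 on chromosome 14, with 504, 643 and 637 reads. tRNA-Pro-AGG-1-1 had 445, 600 and 594 reads, tRNA-Pro-AGG-1-5 had 444, 585 and 576, and tRNA-Pro-AGG-1-4 had 427, 563 and 582. The lowest were tRNA-Pro-AGG-1-3 with 356, 526 and 485 reads and tRNA-Pro-AGG-1-2 with 340, 490 and 493. The highest copy thus had between 1.31 and 1.48 times the reads of the lowest in a library. Between libraries, no difference in the division of the deposited counts among all member genes passed a chi-square test. The test takes reads of single libraries as independent, although copies may share reads. A fixed rule for dividing shared reads would also give the same division in each library. The test therefore cannot decide whether copies differ. The chi-square per degree of freedom was 1.32 between the wild type and knockout 1 (p = 0.169), 1.11 between the wild type and knockout 2 (p = 0.336) and 0.498 between the knockouts (p = 0.955). Over all tRNA genes the same measure was 626, 749 and 38.5, so the libraries are not copies of each other. It grows with the number of reads, which is far larger over all tRNA genes, so it cannot be set against the member values.

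tRNA-Pro-TGG-1-1 on chromosome 7 had 346 reads (22.9 RPM) in the wild-type library, 387 (25.1 RPM) in knockout 1 and 388 (18.3 RPM) in knockout 2. Its ratio to the wild type was 1.10 in knockout 1 and 0.800 in knockout 2, against 1.37 to 1.48 and 0.960 to 1.05 over the Pro-TGG-2 copies. Its share of proline reads was 5.53%, 4.45% and 4.58%. tRNA-Pro-TGG-4-1 on chromosome X, the lowest of the 15, had 42, 54 and 45 reads.

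No proline gene passed the test. Of the 19, 16 had enough reads to be tested, and of all 348 genes tested, 41 (11.8%) passed. Their log2 fold changes ran from -0.08 (tRNA-Pro-TGG-1-1, SE 0.47) to 0.36 (tRNA-Pro-CGG-1-2, SE 0.49), with adjusted p-values from 0.885 to 0.995 (edgeR's quasi-likelihood test). Fitted values were above 0 for 14 genes and below 0 for tRNA-Pro-TGG-1-1 and tRNA-Pro-TGG-4-1, whose sign flips under TMM factors (0.20 and 0.27). In RPM both knockouts stood above the wild type in 4 of the 16 and below it in 0, while over all tested genes the shares were 21.3% and 48.3%.

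**Figure D2:**
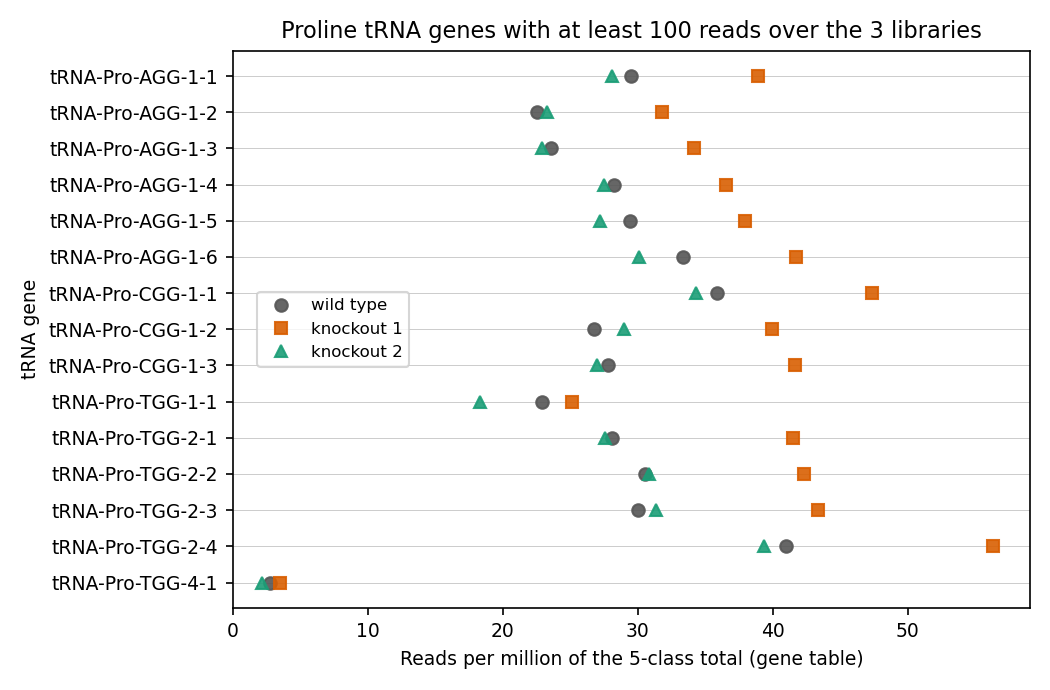
RPM of the 5-class total (x axis) of the 15 proline tRNA genes with at least 100 reads over the 3 libraries (y axis), with 1 point for each library. Knockout 1 is the rightmost point of every gene, and tRNA-Pro-TGG-2-4 has the most reads in each library.

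The per-library tables split each gene's reads into 2 classes and list the read lengths. No source used here describes the classes, which go by the names first class and second class after their column order. These tables held 9376, 13420 and 12956 proline reads in the wild-type library, knockout 1 and knockout 2, of which the gene table held 66.7%, 64.8% and 65.4%. The first class held nearly all of them. The second class was 2.52% (Wilson 95% interval 2.22 to 2.85) of proline reads in the wild-type library, 1.63% (1.43 to 1.86) in knockout 1 and 2.66% (2.39 to 2.95) in knockout 2. Of all other tRNA reads the second class was 0.374%, 0.411% and 0.415%. That pooled share is weighted by abundant tRNAs such as Gly-GCC, whose second class was at most 0.00708%. Among the 22 tRNAs with at least 1000 reads in every library, proline counted as 1 of them, proline stood in the middle, at rank 13, 11 and 11 from the lowest second-class share. Met-CAT was the highest, with 74.0%, 86.1% and 82.1%.

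The second class was most frequent in Pro-TGG, at 3.63%, 2.71% and 4.72% of its reads in the wild-type library, knockout 1 and knockout 2. In Pro-AGG it was 1.86%, 1.04% and 1.48%, and in Pro-CGG 1.94%, 1.001% and 1.54%. In the Pro-TGG-2 copies it was 3.33% to 5.08%, 2.28% to 3.83% and 4.56% to 6.60%. In tRNA-Pro-TGG-1-1 it was 2.03%, 0.535% and 0.337%, the latter from 3 and 2 reads. tRNA-Pro-AGG-3-1 had higher shares from few reads, with 4 of 39, 8 of 53 and 7 of 42 reads in the second class.

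None of the 6 sums per anticodon and read class passed the test, against 7 of 89 (7.87%) over all tRNAs. The first class had log2 fold changes of 0.25 for Pro-AGG, 0.31 for Pro-CGG and 0.25 for Pro-TGG (SE 0.43 to 0.44). In the second class Pro-AGG had 71 reads (4.70 RPM), 56 (3.63 RPM) and 78 (3.68 RPM), a log2 fold change of -0.36 (SE 0.54, edgeR adjusted p = 0.790). Pro-CGG had 42 reads (2.78 RPM), 32 (2.08 RPM) and 47 (2.22 RPM), a log2 fold change of -0.37 (SE 0.64, edgeR adjusted p = 0.805). Pro-TGG had 123 reads (8.14 RPM), 131 (8.50 RPM) and 219 (10.3 RPM), a log2 fold change of 0.21 (SE 0.47, edgeR adjusted p = 0.870). Both knockouts lay below the wild type in the second class of Pro-AGG and Pro-CGG and above it in that of Pro-TGG and in the first class of Pro-CGG, or 2 of 6 sums either way, while over all 89 the shares were 48.3% below and 22.5% above. The second class of Pro-CGG and Pro-AGG rests on fewer than 100 reads per library.

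Reads of 31 nt were the most frequent, with 53.9% of proline reads in the wild-type library, 50.1% in knockout 1 and 53.2% in knockout 2. Reads of 32 nt were 16.4%, 20.3% and 15.8%, those of 30 nt 10.9%, 10.6% and 13.0%, and those of 33 nt 7.60%, 9.31% and 6.39%. From 30 to 36 nt lay 90.4%, 90.9% and 89.2%. Proline reads ran from 16 to 56 nt, past the upper gel limit of 50 nt. First-class reads of 50 nt numbered 36, 59 and 67 in the same order of libraries. Those of 54 nt numbered 23, 9 and 24. In both printed sequences 32 bases precede the anticodon, but the tables do not say where on the tRNA a read begins. Knockout 1 had the lowest share of 31 nt and the highest shares of 32 and 33 nt. Knockout 2 lay on the other side of the wild type at 32 and 33 nt.

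Reads of 33 nt divided the anticodons. They were 0.838% (Wilson 95% interval 0.594 to 1.18) of Pro-AGG reads in the wild-type library, 0.945% (0.720 to 1.24) in knockout 1 and 0.722% (0.526 to 0.989) in knockout 2. In Pro-CGG they were 14.4% (13.0 to 16.0), 19.4% (18.1 to 20.8) and 13.4% (12.3 to 14.7). In Pro-TGG they were 10.9% (9.87 to 12.0), 12.0% (11.1 to 12.9) and 8.20% (7.44 to 9.02). The order from Pro-CGG over Pro-TGG to Pro-AGG was the same in 3 of 3 libraries with intervals that do not overlap. No test of this order was made. For a single pair of anticodons, a two-sided exact sign test over 3 libraries allows no p below 0.25. Reads of 32 nt did not divide them in this way, with 17.3%, 22.5% and 15.8% in Pro-AGG, 15.1%, 17.9% and 14.7% in Pro-CGG, and 16.3%, 19.5% and 16.5% in Pro-TGG. The anticodons may share reads of 32 nt, so these shares cannot serve as a contrast to those of 33 nt. In the printed sequences, both of Pro-TGG genes with few reads, base 33 is the first anticodon base. No Pro-AGG or Pro-CGG sequence was used here, and where on the tRNA a read begins is not known. The part of the anticodon base, of read mapping and of shared reads in the 32 and 33 nt shares was not tested.

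Copies of Pro-AGG-1, Pro-CGG-1 and Pro-TGG-2 showed the same division, but the Pro-TGG genes differed among themselves. Over the 6 Pro-AGG-1 copies the 33 nt share ran from 0.444% to 1.44% in the wild-type library, from 0.662% to 1.04% in knockout 1 and from 0.437% to 1.11% in knockout 2. Over the 3 Pro-CGG-1 copies it ran from 12.9% to 17.5%, from 19.0% to 20.1% and from 12.3% to 14.2%. Over the 4 Pro-TGG-2 copies it ran from 11.8% to 12.6%, from 11.8% to 13.8% and from 8.03% to 10.9%. No Pro-AGG-1 copy reached the lowest Pro-CGG-1 or Pro-TGG-2 copy of its library. In tRNA-Pro-TGG-1-1 the 33 nt share was 6.63% in the wild-type library, 6.24% in knockout 1 and 4.89% in knockout 2. These values lie between those of the Pro-AGG-1 and the Pro-TGG-2 copies of each library. In tRNA-Pro-TGG-4-1, with few reads, the share was 0 in each library. Copies of a name may share reads, so they are not independent and add no support to the division by anticodon.

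**Figure D3:**
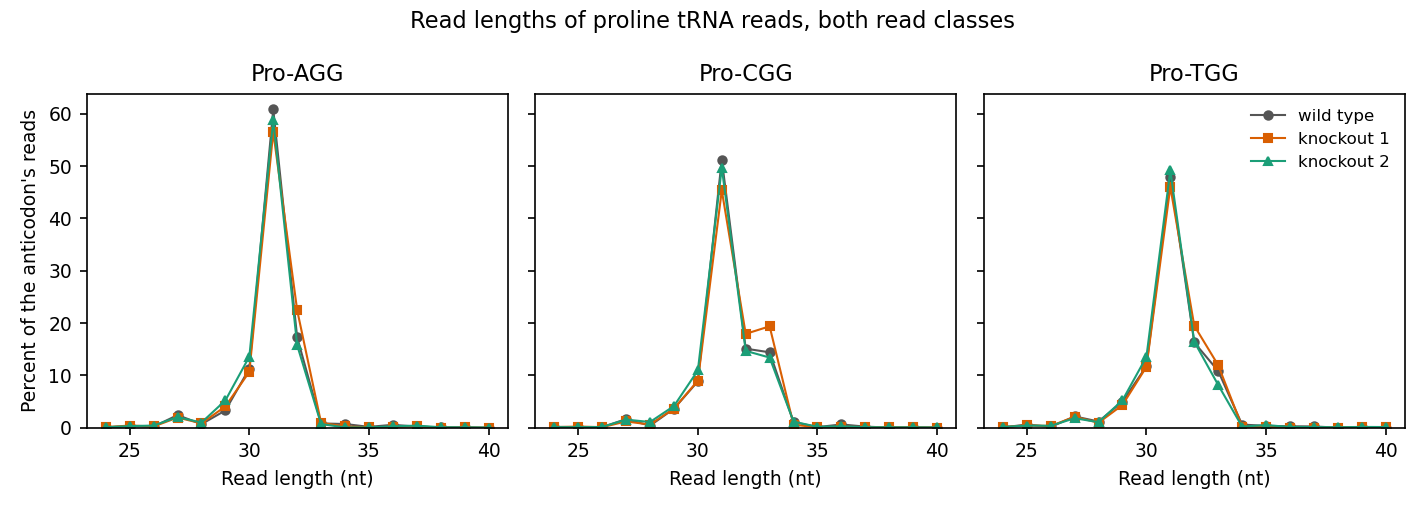
Share of each anticodon's reads (y axis, percent, both read classes) by read length (x axis, nt), with 1 line for each library. All panels peak at 31 nt, and the shoulder at 33 nt, 14.4% of Pro-CGG and 10.9% of Pro-TGG reads in the wild-type library, is at 0.838% in Pro-AGG.

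A few Pro-TGG genes had other length profiles. In tRNA-Pro-TGG-1-1 reads of 30, 31 and 32 nt were about equally frequent, at 23.2%, 27.1% and 27.3% in the wild-type library, 26.0%, 25.5% and 27.99% in knockout 1 and 26.8%, 28.2% and 22.9% in knockout 2. The 31 nt share of the Pro-TGG-2 copies was 52.2% to 54.4%, 47.8% to 50.7% and 52.5% to 55.0%. In tRNA-Pro-TGG-4-1 reads of 29 nt were the most frequent, with 33 of 67, 46 of 83 and 44 of 76 reads, and 0 of its reads were 33 nt long in each library, which allows 33 nt shares of up to 5.42%, 4.42% and 4.81% (upper Wilson 95% bounds). tRNA-Pro-TGG-3-1 had 14, 9 and 3 reads in the per-library tables, none of them of 30 to 33 nt.

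When reads were summed per anticodon, read class and length, 45 proline fragments were tested and none passed, against 18 of 834 (2.16%) over all tRNAs. At an unadjusted p of 0.05, 1 of the 45 passed, the second-class reads of 34 nt from Pro-CGG, against 12.4% of all 834. The most abundant were first-class reads of 31 nt. Pro-AGG had 154 RPM of these in the wild-type library, 198 RPM in knockout 1 and 146 RPM in knockout 2. Pro-TGG had 104 RPM, 139 RPM and 103 RPM, and Pro-CGG 73.2 RPM, 93.8 RPM and 71.4 RPM. The 9 first-class fragments named by abundance, 3 per anticodon, had log2 fold changes from 0.16 (Pro-AGG, 31 nt) to 0.53 (Pro-CGG, 33 nt), with edgeR adjusted p-values from 0.755 to 0.931. Knockout 1 was above the wild type in 9 of the 9 and knockout 2 in 2 of them. Of all 45 proline fragments, both knockouts were above the wild type in RPM in 19 and below it in 9. Over all 834 fragments 40.5% had both below. The share with both above is not given here for all 834, so the counts above do not show whether proline was unusual. Fragments of different proline anticodons may share reads, so the 9 are not independent.

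Second-class lengths differed between the anticodons and between the libraries. At 31 nt they were mostly Pro-TGG, with 48 reads (3.18 RPM) in the wild-type library, 76 (4.93 RPM) in knockout 1 and 108 (5.10 RPM) in knockout 2, against 1, 0 and 2 reads of Pro-AGG and 2, 5 and 7 of Pro-CGG. Both knockouts were above the wild type, and the log2 fold change of the Pro-TGG reads was 0.66 (SE 0.66, edgeR adjusted p = 0.714). At 30 nt the proline reads were 38 (2.52 RPM), 46 (2.98 RPM) and 110 (5.196 RPM), of which Pro-TGG gave 29, 31 and 61, Pro-CGG 6, 9 and 22, and Pro-AGG 3, 6 and 27. Knockout 2 was the highest library in RPM.

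At 34 nt second-class reads were fewer in both knockouts for each anticodon, and no value passed the adjusted threshold. Pro-AGG had 22 reads (1.46 RPM) in the wild-type library, 11 (0.714 RPM) in knockout 1 and 3 (0.142 RPM) in knockout 2, a log2 fold change of -1.81 (SE 0.96, edgeR adjusted p = 0.403). Pro-CGG had 13 reads (0.861 RPM), 2 (0.130 RPM) and 2 (0.0945 RPM), a log2 fold change of -2.88 (SE 1.38, edgeR adjusted p = 0.340). Pro-TGG had 14 reads (0.927 RPM), 5 (0.324 RPM) and 1 (0.0472 RPM), a log2 fold change of -2.37 (SE 1.26, edgeR adjusted p = 0.403). The groups do not overlap in 3 of 3 anticodons, which may share reads. Over all 834 fragments tested 40.5% had both knockouts below the wild type. Summed over proline, a sum chosen after seeing the data, the reads were 49, 18 and 6, with a log2 fold change of -2.20 (SE 0.82, edgeR adjusted p = 0.463), where 0 of 589 such sums (0%) passed and 61 did at an unadjusted p of 0.05. Second-class reads of 34 nt from tRNAs other than proline were 231 RPM, 223 RPM and 268 RPM. This value pools 32 anticodons and may be weighted by a few with many such reads, so it does not show how single anticodons moved.

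At 36 nt the second class had 22, 10 and 16 reads of Pro-AGG, with a log2 fold change of -1.04 (SE 0.86, edgeR adjusted p = 0.661). Pro-CGG had 14, 6 and 8 reads, with -1.26 (SE 1.09, edgeR adjusted p = 0.661). Pro-TGG had 10, 3 and 8 reads, with -1.16 (SE 1.24, edgeR adjusted p = 0.737). As at 34 nt, both knockouts were below the wild type in RPM for each anticodon, a pattern seen in 40.5% of all 834 fragments. At 37 nt Pro-AGG had 9, 16 and 20 reads, with a log2 fold change of 0.73 (SE 0.98, edgeR adjusted p = 0.797). All these second-class lengths rest on 117 proline reads or fewer per library, and no difference at these lengths was detectable by this test at that depth.

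**Figure D4:**
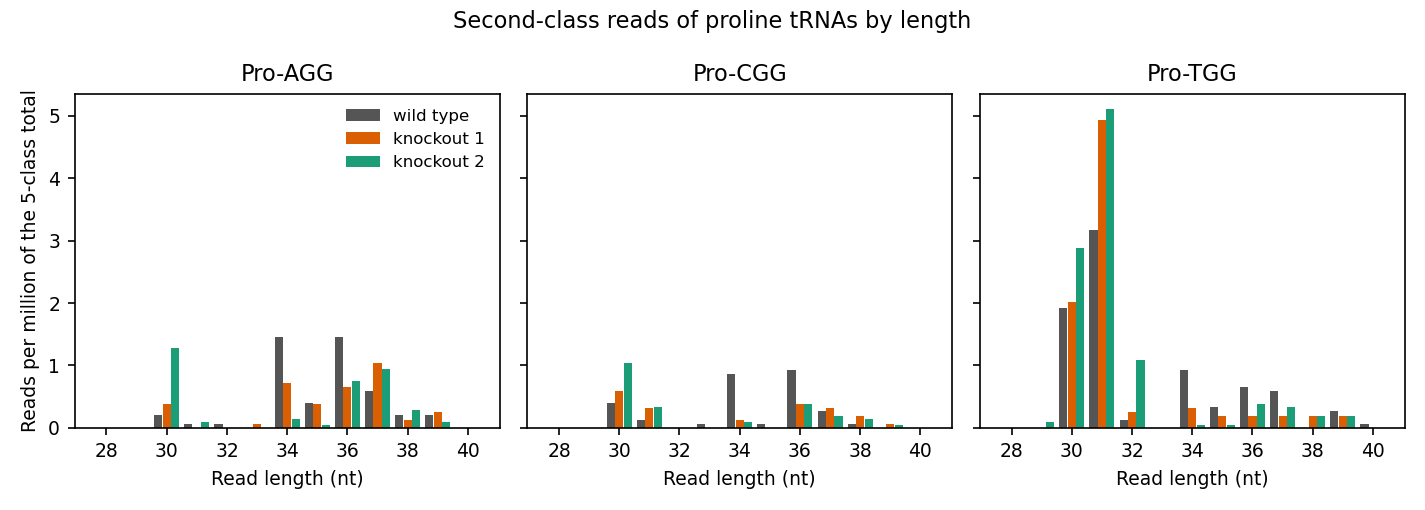
Second-class reads of the 3 proline anticodons in RPM of the 5-class total (y axis) by read length (x axis, nt), with 1 bar for each library. Bars at 30 and 31 nt are highest in Pro-TGG, and at 34 nt the wild-type bar is the highest of the 3 libraries in each anticodon.

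The proline libraries were compared with other tRNAs by a fixed measure. With a log2 ratio to the wild type of 0.45 in knockout 1 and -0.05 in knockout 2, the proline sum was nearest to Cys-GCA, at a distance of 0.306 among 17 anticodons with a mean of at least 100 RPM. Cys-GCA had 146 RPM in the wild-type library, 161 RPM in knockout 1 and 141 RPM in knockout 2. Next came Ala-CGC at 0.499, with 316 RPM, 387 RPM and 424 RPM, and Lys-CTT at 0.505, with 6977 RPM, 7010 RPM and 5679 RPM. Of 20 anticodons at that level, proline included, 6 were higher in knockout 1 than in knockout 2, and the median ratio of knockout 1 to knockout 2 was 0.912. For Pro-AGG, Pro-CGG and Pro-TGG it was 1.39, 1.43 and 1.42. These ratios rest on 3 shared libraries, the proline anticodons may share reads, and no test was made.

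**Figure D5:**
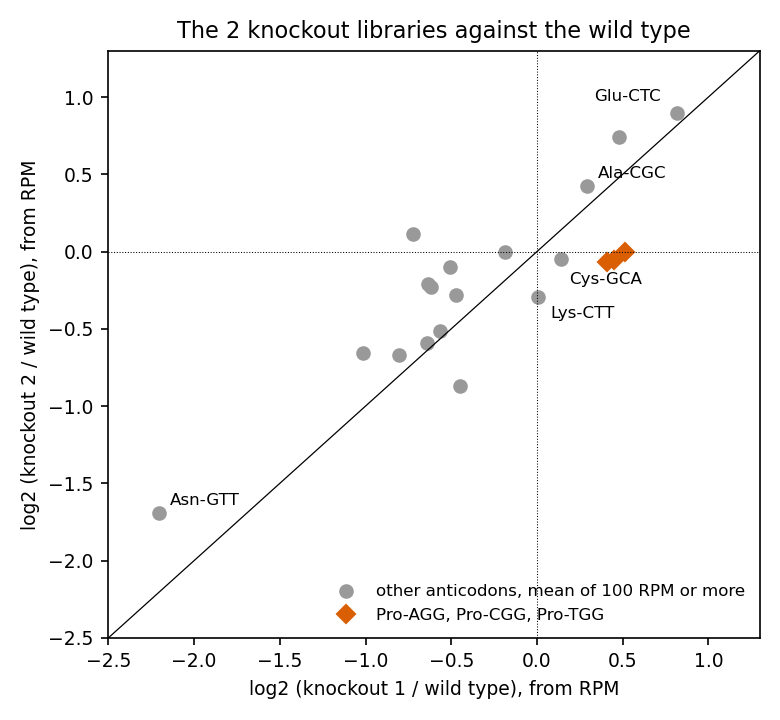
Log2 ratio of knockout 1 to wild type (x axis) against that of knockout 2 to wild type (y axis), from RPM, for anticodons with a mean of at least 100 RPM and the 3 proline anticodons. The solid line marks equal ratios and the dotted lines mark 0. The proline anticodons lie to the right of 0 on the x axis and at about 0 on the y axis, below the line of equal ratios.

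In read length, proline was nearest to Gly-GCC, Gly-CCC and Glu-CTC of the other anticodons with at least 1000 reads in every library. Their length distributions differed from that of proline by 21.8%, 22.9% and 31.4% of reads (total variation distance, averaged over libraries). Each of them also peaked at 31 nt in every library. In Gly-GCC reads of 31 nt were 63.8%, 55.5% and 52.7%.

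Lists of other tRNAs that share a feature with proline tRNAs were read from the same fit. In the first list are 4 other anticodons of tRNAs that also carry 1-methylguanosine after the anticodon. Of these 4, 0 rose and 0 fell by edgeR's adjusted p, and their log2 fold changes were 0.41 for Leu-AAG, 0.53 for Leu-CAG, 0.16 for Leu-TAG and -0.60 for Arg-CCG. With 11.1% of all anticodons called, a count of 0 of 4 is near the background. Their median was 0.28, against -0.29 over the 45 anticodons tested. The second list holds 7 other anticodons whose genes, like those of Pro-AGG, have an A at the first anticodon base and whose A is edited to inosine. Of these 7, 1 fell, Thr-AGT, with a log2 fold change of -1.29 (SE 0.30, edgeR adjusted p = 0.00128), and 0 rose. Over all 45 anticodons 4 fell and 1 rose (11.1% in all). The Thr-AGT call was lost with column sums as library size (adjusted p = 0.0511), with a library size without miRNA reads (adjusted p = 0.409) and under DESeq2 (adjusted p = 0.111). The median of the 7 was -0.29.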

How the data were processed

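The authors deposited raw read counts: counts in 5 RNA classes, counts per tRNA gene, and, for each library, counts in 2 unnamed read classes per gene. The length lists the authors deposited pair lengths with counts (unit other). Per the submitters' processing notes the build was mm10 and cutadapt was used. No source used here gives the aligner, the counter or the handling of reads shared by gene copies.

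Counts were scaled to the 5-class total (RPM) and summed per amino acid, anticodon, read class and length over all tRNAs. Knockout was tested against wild type with edgeR 4.0.16 (R 4.3.3; quasi-likelihood, two-sided, filterByExpr, no composition factor, Benjamini-Hochberg at 0.05). The lone wild type is assumed to vary like the knockouts. The prior degrees of freedom came out infinite in these fits, so spread was pooled over features; for fragments summed per amino acid, added after seeing the data, they were 4.54. Scripts were tested on simulated data. Shares carry Wilson 95% intervals, for counting error only, and no test. Alternatives included TMM, DESeq2 1.42.0, other library sizes and filters.

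Named were the proline sums, genes with at least 100 reads, the 3 most abundant lengths per anticodon and class, any fragment past the threshold, and the 3 nearest other anticodons per measure. Second-class lengths of 30, 31, 34 and 36 nt outside that rule were chosen after their values were seen. Members and lists were chosen with earlier results of these data known.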

Additional observations from a re-analysis of the deposited data

How the results depend on the processing

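No proline sum, anticodon, gene, read class or fragment passed the adjusted threshold under any scaling, filter or tool tried, including DESeq2. The proline sum had adjusted p-values from 0.129 to 0.774 over 8 alternatives, and its log2 fold change ran from 0.22 to 0.65. Under DESeq2 1 proline sum, the amino acid sum, passed at an unadjusted p of 0.05. The values of tRNA-Pro-TGG-1-1 and tRNA-Pro-TGG-4-1 turned from below to above 0 under TMM factors (0.20 and 0.27), column sums as library size (0.19 and 0.26), a library size without miRNA reads (0.15 and 0.23) and DESeq2 (0.11 and 0.20), and tRNA-Pro-TGG-4-1 also with per-library table counts (0.0098). With 1 knockout library left there is no test. The log2 ratio of the proline sum was then -0.05 or 0.45, that of Pro-AGG -0.07 or 0.41, that of Pro-CGG -0.0024 or 0.51 and that of Pro-TGG -0.06 or 0.45, so knockout 1 sets the sign. Shares as ratios of knockout to wild type ran, without either knockout, from 0.648 to 1.05 for the second class, 0.987 to 1.01 for 30 to 36 nt, 0.928 to 0.986 for 31 nt, 0.960 to 1.24 for 32 nt and 0.840 to 1.22 for 33 nt. In RPM in place of shares the ratio was 1.19 for 30 to 36 nt, 1.14 for 31 nt and 1.34 for 32 nt, since proline reads as a whole were higher in knockout 1. Leaving out the only wild type gives no comparison. No paired analysis was possible because the genotypes share fewer than 2 replicate numbers. Second-class fragments at 30 to 37 nt were too few to be tested under the stricter filter of at least 100 reads in every library.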
